A study of Homo sapiens with 4 samples.

Results

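Keratins, vimentin, the lamins and the other intermediate filament genes were described in HT1080 cells lacking KDAC8. The members were chosen by name from the deposited gene table: every keratin gene of the form KRT and a number, plus VIM, DES, GFAP, PRPH, NEFL, NEFM, NEFH, INA, NES, SYNM, LMNA, LMNB1 and LMNB2. The rule found 68 of 60675 gene rows, of which 55 were keratins (29 of type I and 26 of type II) and 13 were other intermediate filament genes. The rule itself uses gene names and no measured value. HT1080 is an established human fibrosarcoma line, a tumour of connective tissue origin, and KDAC8, the product of HDAC8, is an enzyme that removes acetyl groups from lysines. The series holds 1 group, the KDAC8 knockout genotype, in 4 replicate libraries of total RNA depleted of ribosomal RNA. No parental or other control library was analysed here, so every comparison below is between genes within a library or between replicate libraries, and none shows an effect of the knockout. The labels state neither whether the knockout is 1 clone or a pool nor whether the replicates came from separate cultures, so the spread between libraries may be technical.

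Intermediate filaments are built from proteins that share a central alpha-helical rod and pair as coiled coils. Keratins are obligate heteropolymers of a type I and a type II chain, and form the filaments of epithelia, hair and nail, whereas vimentin forms homopolymers and is the usual cytoplasmic filament of mesenchymal cells. Lamins are the nuclear members and line the inner nuclear membrane in nearly all cell types.

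Total counts were 39454210 to 45828807 per library. The unit of level is CPM, counts per 1e+06 of a library size adjusted by TMM, the trimmed mean of M-values, with factors of 0.963 to 1.03. A count of 0 in a single library allowed a level of up to 0.0662 to 0.0742 CPM, which is 3 counts, while 0 counts in all 4 libraries allowed 0.0176 CPM. These limits and the intervals below cover counting error only. HDAC8, the targeted gene, had 80, 89, 95 and 107 counts in replicates 1 to 4, and its level alone does not check the label because the edited position is not given and no unedited library was analysed. Structural noncoding RNA made up 7.10%, 10.7%, 9.21% and 8.17% of counts in replicates 1 to 4. Genes in the highest of 20 bins of transcript GC content lay at a median of -0.13, 0.12, 0.07 and -0.05 log2 units from their own mean in those libraries.

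A few genes carried almost all of the intermediate filament RNA. Detection meant that each of the 4 libraries reached 1 CPM, and 14 of 68 members met this, against 58.8% of the 19693 protein-coding rows. They were 8 of 55 keratins (KRT81, KRT8, KRT18, KRT80, KRT10, KRT7, KRT15 and KRT86) and 6 of 13 others (VIM, LMNA, LMNB2, LMNB1, SYNM and NEFL). A further 27 members had 0 counts in all 4 libraries, namely 26 keratins and INA. The median member stood at 0.0170 CPM, against 6.76 CPM for the median protein-coding row. All members together took 0.722% to 0.801% of the total counts of a library, and VIM held 62.1% ± 1.41 (SD, n = 4) of their summed CPM.

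**Figure D1:**
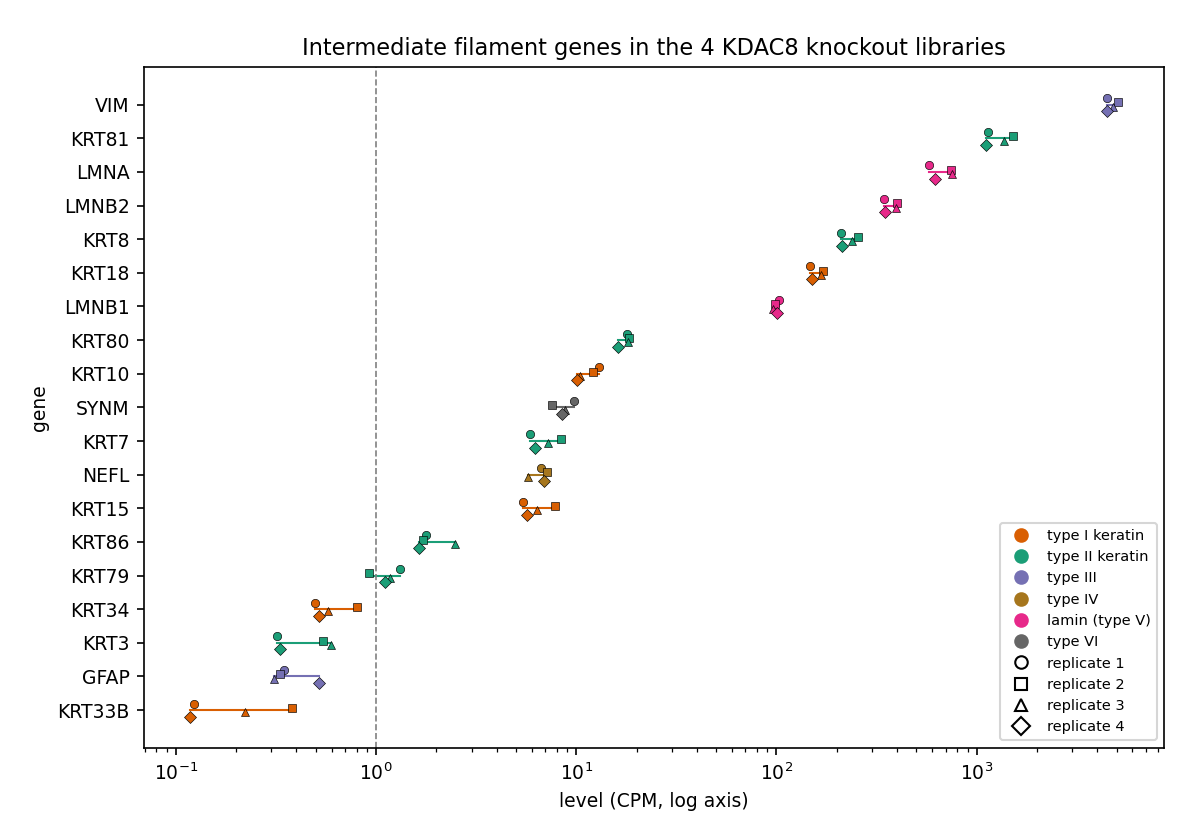
Level of each member at a mean of 0.2 CPM or more, in CPM on a log axis. Each symbol is 1 of the 4 knockout libraries, the horizontal line joins the lowest and the highest library, colour gives the filament type and the dashed line marks 1 CPM; the members span from VIM at 4701 CPM to KRT33B at 0.211 CPM.

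VIM encodes vimentin, the type III filament protein of mesenchymal cells. VIM (ENSG00000026025, GRCh38 chr10:17228259-17237593, forward strand) stood at 4459, 5058, 4796 and 4489.6 CPM in replicates 1 to 4, or 4701 ± 283 CPM (SD, n = 4). It ranked 8 among all gene rows in CPM. The libraries lay within 1.13-fold of each other. Of the windows of 150 bases in its transcript, 24.8% were also found in its antisense neighbour VIM-AS1, whose own row held 3.28 ± 0.139 CPM; the strand setting of the counting is not given in the sources used here, so reads of the shared stretch cannot be assigned to a strand.

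The other type III genes were low. GFAP, the filament gene of astrocytes, had 14, 14, 14 and 22 counts in replicates 1 to 4, with an exact 95% Poisson interval of 7.65 to 23.5 for a count of 14 and 13.8 to 33.3 for a count of 22. Its mean was 0.377 ± 0.0968 CPM, and the 4 intervals overlapped. GFAP shares 2230 exonic bases with each of the opposite-strand annotations CCDC103 and FAM187A, and CCDC103 stood at 0.760 ± 0.281 CPM. DES, the desmin gene of muscle, had 8, 0, 2 and 0 counts. PRPH, the peripherin gene of peripheral neurons, had 0, 1, 1 and 1 counts, so neither gene reached 0.1 CPM on average.

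The lamin genes were the next group outside the keratins, and all 3 were detected. LMNA encodes the A-type lamins A and C. LMNA (ENSG00000160789, chr1:156082573-156140089, forward strand) had 578, 747, 750.1 and 617 CPM in replicates 1 to 4 (673 ± 88.5 CPM). Replicates 2 and 3 were the higher ones. LMNB2 and LMNB1 encode B-type lamins, which remain tied to the membrane through a lipid anchor. LMNB2 (ENSG00000176619, chr19:2427638-2456996, reverse strand) had 343, 399.8, 398 and 349 CPM (372 ± 30.6 CPM), with the same libraries on top. LMNB1 (ENSG00000113368, chr5:126776623-126837020, forward strand) was the steadiest detected member, at 102, 97.9, 95.7 and 100.1 CPM (99.0 ± 2.87 CPM). No window of 50 bases from the main transcripts of LMNA, LMNB1 or LMNB2 occurred in a transcript of another gene, on either strand. At its 3′ end LMNB2 overlaps TIMM13, on the same strand, by 257 bases, and TIMM13 stood at 54.4 ± 10.5 CPM.

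Within each library the lamin genes kept 1 order. LMNA exceeded LMNB1 by 2.76 ± 0.23 log2 units of CPM, which is 6.76-fold. Per kilobase of annotated exon the difference was 1.81 log2 units, and per kilobase of coding sequence 2.58. LMNB1 was 3.75-fold lower than LMNB2 in CPM, a log2 ratio of -1.91 ± 0.16, which was -1.33 per kilobase of exon and -1.83 per kilobase of coding sequence. The direction was the same in 4 of 4 libraries in both comparisons. The two-sided exact sign-flip permutation test gave p = 0.125, the smallest that 4 libraries allow, and 0.125 after Benjamini-Hochberg adjustment over the 7 within-library comparisons made. The same p holds for each of those 7, so none could pass 0.05.

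VIM exceeded LMNA by 2.81 ± 0.12 log2 units of CPM, or 7.02-fold, and 9.51-fold per kilobase of exon (4 of 4 libraries, exact sign-flip p = 0.125). It exceeded KRT8, a filament gene of simple epithelia, by 4.36 ± 0.05 log2 units, or 20.5-fold. That ratio was 27.4-fold per kilobase of exon and 22.5-fold per kilobase of coding sequence, again in 4 of 4 libraries (exact sign-flip p = 0.125).

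**Figure D2:**
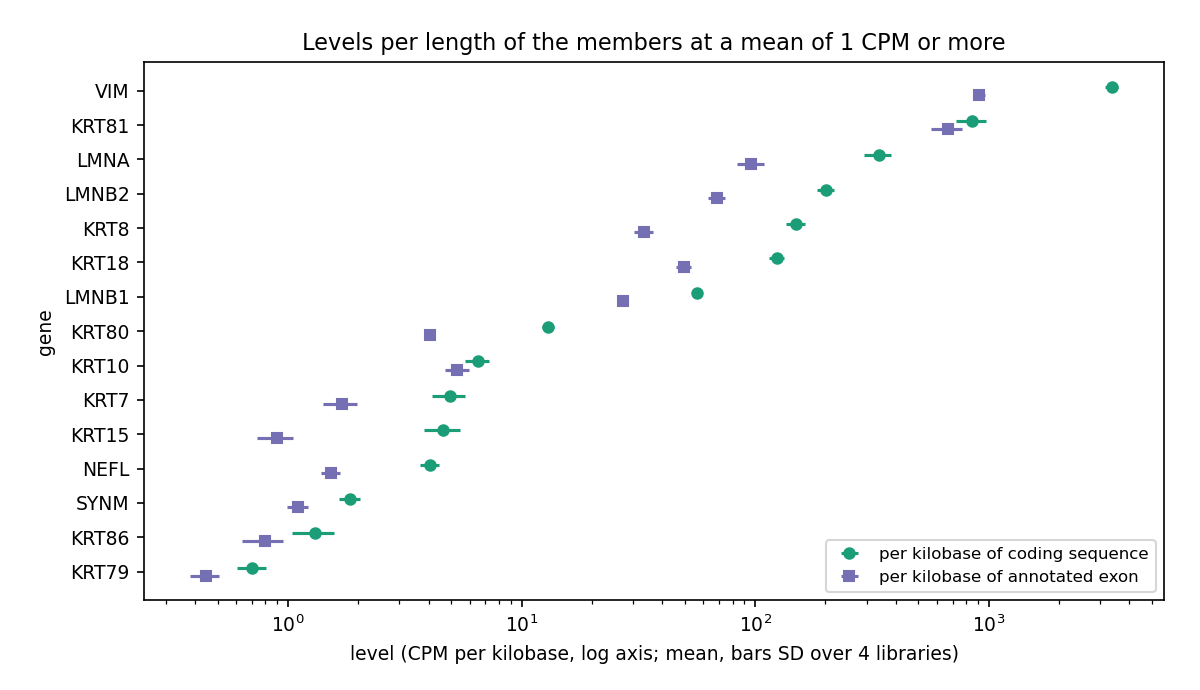
Levels per length of the 15 members at a mean of 1 CPM or more, on a log axis in CPM per kilobase of coding sequence (circles) and of annotated exon (squares), as mean and SD over the 4 knockout libraries. VIM and KRT81 lead on both scales, whereas KRT8 lies above KRT18 on the first and below it on the second.

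The keratin with the highest level was a hair keratin. KRT81 encodes a type II keratin of the hair cortex. KRT81 (ENSG00000205426, chr12:52285913-52291534, reverse strand) had 46089, 63867, 62198 and 47140.02 counts in replicates 1 to 4. These were 1139.99, 1517, 1373 and 1115 CPM, with a mean of 1286 ± 193 CPM, which placed it 52 among all rows and above 99.6% of detected genes in CPM. Replicates 2 and 3 were above replicates 1 and 4, with a range of 1.36-fold. Per kilobase of exon KRT81 reached 667 ± 99.8 CPM, against 911 ± 54.8 for VIM. Per kilobase of coding sequence it reached 849 ± 127 CPM, against 3362 ± 202 for VIM. Exon length counts the exons of all annotated transcripts of a gene, 1929 bases for KRT81 and 5158 for VIM. The main transcript of VIM, the one with the longest coding sequence, has 2135 bases, so the exon scale lowers VIM against KRT81.

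KRT81 made up 74.6% ± 1.26 of the summed CPM of all keratins (SD, n = 4), KRT8 13.4% ± 0.549 and KRT18 9.31% ± 0.578. Of the type II hair keratins alone KRT81 held 99.8%. It stood 5.57-fold above KRT8 in CPM, 19.9-fold per kilobase of exon and 5.64-fold per kilobase of coding sequence. The annotated exons of KRT8 cover 6881 bases and its main transcript has 1687, which widens the ratio per kilobase of exon. These ratios to KRT81 are descriptions and were not tested.

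The other hair keratins were far lower. KRT86, the closest relative of KRT81 among the members compared, is also a type II keratin of the hair cortex. KRT86 (ENSG00000170442, chr12:52249300-52309163, forward strand) had 71.9, 72.6, 111.9 and 69.2 estimated counts in replicates 1 to 4, or 1.78, 1.72, 2.47 and 1.64 CPM (1.90 ± 0.383 CPM). KRT81 was 556-fold to 879-fold above it in the 4 libraries in CPM, and 843-fold on average per kilobase of exon. Replicate 3 was the high library for KRT86.

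KRT34, a type I hair keratin gene, averaged 0.599 ± 0.143 CPM, with 20, 34, 26 and 22 counts. KRT33B, also of type I, averaged 0.211 ± 0.122 CPM, with 5, 16, 10 and 5 counts. Neither reached 1 CPM in any library. The 6 type II hair keratins summed to 1288 ± 193 CPM, while the 11 type I hair keratins summed to 0.855 ± 0.265 CPM. KRT83, another close relative, had 1, 4.03, 2 and 4.09 estimated counts.

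How firmly reads can be given to KRT81 was examined in the sequences. The coding sequence of KRT81 was 94.2% identical to that of KRT86, 93.4% to that of KRT83 and 68.0% to that of KRT8. Of all windows of 150 bases in the 1929-base KRT81 transcript, 25.6% also occurred in KRT86 and none in any other annotated gene. Of windows of 50 bases, 44.6% were shared with another gene: 38.4% with KRT86, 9.04% with the pseudogene KRT87P and 6.22% with KRT83. The remaining windows belonged to KRT81 alone, and the untranslated ends shared none with another gene. Expected counts split the reads of a shared window between its genes, so the level of KRT86, at a small fraction of KRT81's, is the less certain of the pair. The KRT86 gene spans the whole of KRT81 on the opposite strand, with 0 exonic bases in common, and also runs over KRT87P, which stood at 0.278 ± 0.164 CPM.

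**Figure D3:**
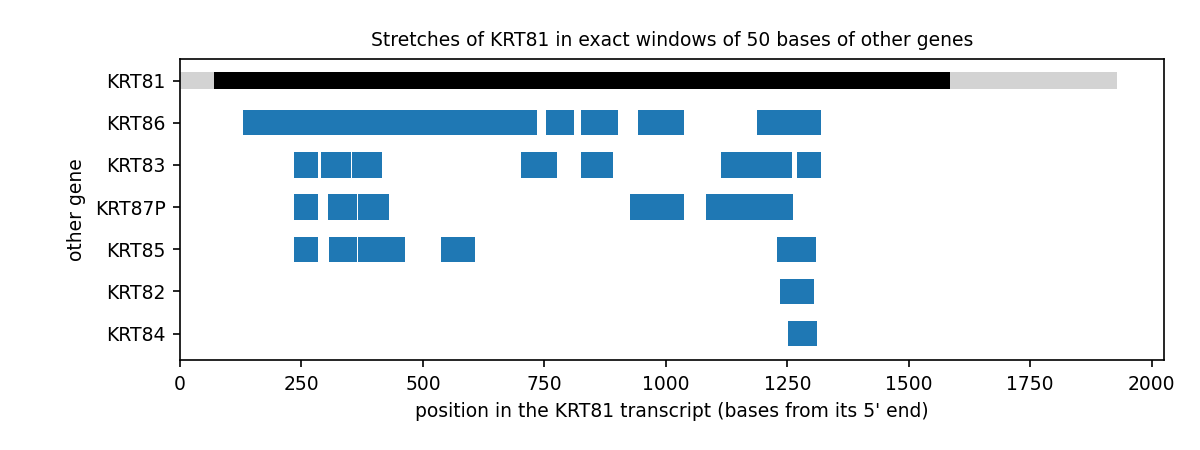
Stretches of the KRT81 transcript (position in bases from its 5′ end) that occur, in exact windows of 50 bases, in transcripts of 6 other keratin genes. The top bar shows the coding part in black and the untranslated ends in grey; the longest shared stretch is 605 bases, with KRT86, and the stretches lie within the coding part.

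KRT8 and KRT18 encode the type II and type I partners that fill simple epithelia. KRT8 (ENSG00000170421, chr12:52897187-52949954, reverse strand) had 211, 256.4, 238 and 213 CPM in replicates 1 to 4 (229.7 ± 21.5 CPM). KRT18 (ENSG00000111057, chr12:52948871-52952901, forward strand) had 148, 171, 168 and 151 CPM (159 ± 11.7 CPM). In both genes replicates 2 and 3 were above replicates 1 and 4.

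KRT8 exceeded KRT18 by 0.53 ± 0.04 log2 units of CPM, or 1.44-fold, in 4 of 4 libraries (exact sign-flip p = 0.125). Per kilobase of coding sequence the difference was 0.28 log2 units. Per kilobase of annotated exon the direction turned, to -0.57, because the annotation gives KRT8 6881 exonic bases and KRT18 3218. Which of the pair is higher therefore depended on the length used. These exonic bases count all annotated transcripts of each gene. The main transcripts are nearer in length, at 1687 bases for KRT8 and 1562 for KRT18, and those lengths keep the direction of CPM. The genes lie on opposite strands and overlap at their 5′ ends, with 525 exonic bases in common. In the KRT18 transcript 10.97% of windows of 150 bases occurred in KRT8. Of windows of 50 bases, 47.6% in KRT18 and 41.3% in KRT8 were shared with another gene. In the KRT8 transcript 0 windows of 150 bases were shared.

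Both genes have many processed pseudogenes. The 50 rows named as KRT8 pseudogenes held 10.0% to 13.2% as many counts as KRT8, and 2 of them were detected. KRT8P14 stood at 16.5 ± 0.615 CPM and KRT8P12 at 5.79 ± 0.455 CPM. The 67 KRT18 pseudogene rows held 1.25% to 3.06% as many counts as KRT18, and 0 were detected. With pseudogene counts added to each parent, KRT8 exceeded KRT18 by 0.66 log2 units.

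KRT7 (chr12:52232520-52252186, forward strand), a type II keratin of ducts and glands, had 5.88, 8.41, 7.26 and 6.20 CPM in replicates 1 to 4 (6.94 ± 1.14 CPM). Its transcript shares 10.4% of windows of 50 bases with its antisense neighbour KRT7-AS. KRT19 and KRT20, the remaining type I keratins of simple epithelia, had at most 2 counts in any library. The detected simple epithelial keratins were thus KRT8, KRT18 and KRT7, 3 of 5.

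Summed by type, type II keratins exceeded type I keratins by 3.11 ± 0.10 log2 units of CPM, or 8.62-fold, in 4 of 4 libraries (exact sign-flip p = 0.125). The type II sum was 1544 ± 216 CPM and the type I sum 178 ± 12.9 CPM. With KRT81 left out, an alternative chosen after seeing the data, the difference was 0.53 log2 units, and with KRT8 and KRT18 left out it was 6.13. KRT18 alone held 89.5% ± 0.861 of the type I sum. The surplus of type II over type I RNA thus lay mostly in KRT81.

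Among the 23 keratins of stratified and other epithelia, 3 were detected. KRT80 (chr12:52168996-52192000, reverse strand), a type II keratin gene active in many epithelia, had 17.8, 18.4, 18.0 and 16.1 CPM in replicates 1 to 4 (17.6 ± 1.01 CPM). KRT10 (chr17:40818117-40822595, reverse strand), the type I keratin of the upper epidermal layers, had 12.9, 12.1, 10.4 and 10.1 CPM (11.4 ± 1.35 CPM). KRT15 (chr17:41513743-41522529, reverse strand), a type I keratin of basal cells and the hair follicle bulge, had 5.42, 7.87, 6.37 and 5.65 CPM (6.33 ± 1.10 CPM). The usual type II partners of KRT10 and KRT15 had 0 counts in all 4 libraries. These are KRT1, which pairs with KRT10 in skin, and KRT5, which pairs with KRT15 and KRT14 in basal cells. KRT14, itself of type I, had 0, 1, 3 and 0 counts.

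KRT79 had 1.31, 0.926, 1.17 and 1.11 CPM in replicates 1 to 4 (1.13 ± 0.159 CPM), just short of detection in replicate 2. KRT3, a keratin of the cornea, averaged 0.449 ± 0.143 CPM, with 13, 23, 27 and 14 counts. The other 18 keratins of this class averaged less than 0.1 CPM each, and 11 of them had 0 counts in all libraries. Of the 9 keratins of the hair follicle sheath 8 had 0 counts in all libraries, and the exception, KRT75, had 1, 6, 1 and 0 counts.

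**Figure D4:**
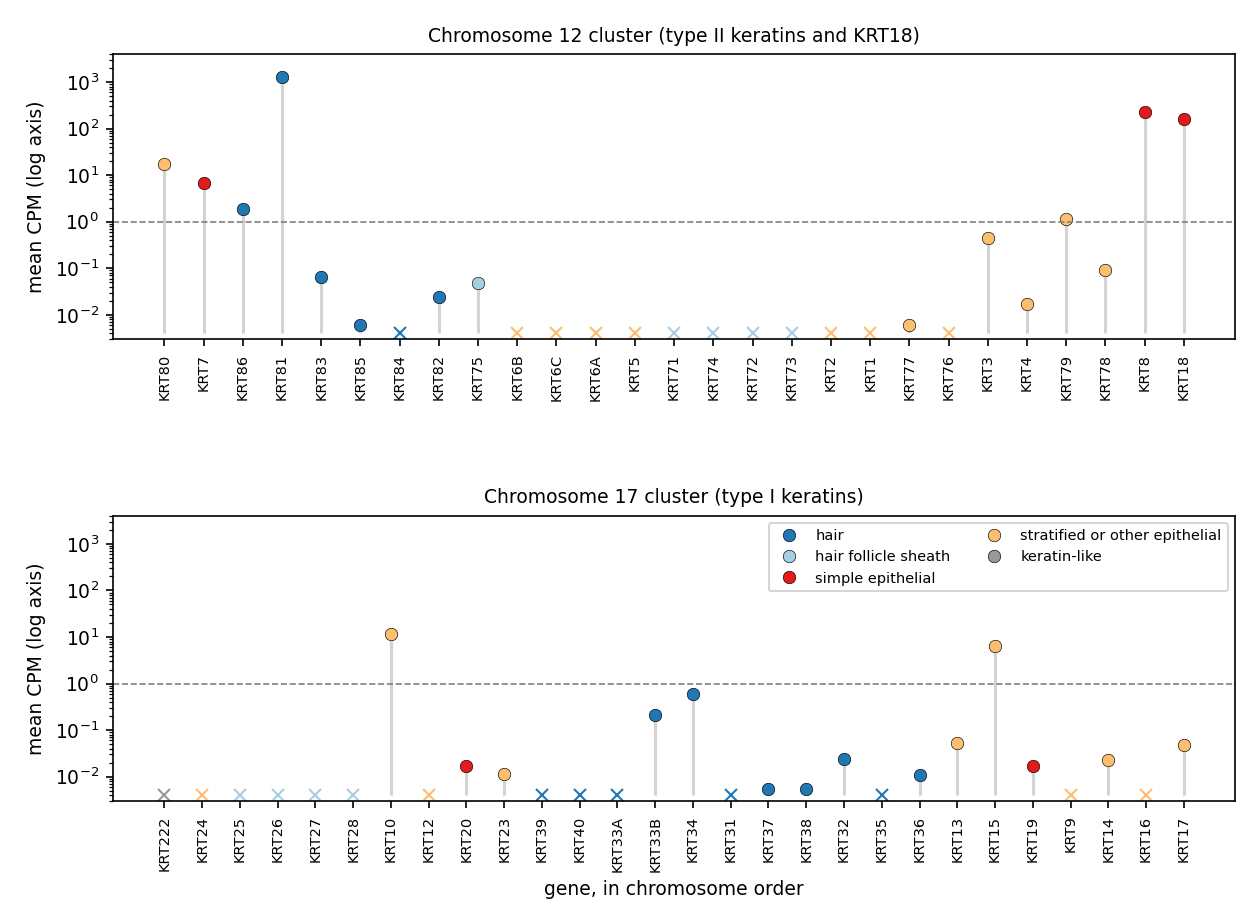
Mean level (CPM, log axis) of the 27 keratin genes of the chromosome 12 cluster and the 28 of the chromosome 17 cluster in chromosome order, coloured by the tissue class of the keratin. Crosses at the bottom are genes with 0 counts in all 4 libraries and the dashed line marks 1 CPM; the detected genes of the chromosome 12 cluster stand at its ends, with KRT80, KRT7, KRT86 and KRT81 at one and KRT8 and KRT18 at the other.

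Keratin genes lie in dense clusters, and on chromosome 12 the detected ones stood at the ends of the cluster. The first 4 of its 27 keratin genes, KRT80, KRT7, KRT86 and KRT81, and the last 2, KRT8 and KRT18, were the 6 detected ones. None of the 21 genes between them was detected, and 12 of those had 0 counts in all libraries. On chromosome 17 KRT10 and KRT15 were the 2 detected genes of 28.

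The neuronal and nestin-class genes gave 2 detected members. NEFL, the light neurofilament chain, had 6.65, 7.15, 5.74 and 6.88 CPM in replicates 1 to 4 (6.61 ± 0.612 CPM). An antisense annotation shared 8.67% of the windows of 150 bases in the NEFL transcript. The partners of NEFL were near the limit: NEFM had at most 3.73 estimated counts and NEFH 3, 3, 5 and 6 counts, and INA had 0 counts in all libraries. SYNM encodes synemin, which joins vimentin or desmin filaments and links them to adhesion sites. SYNM (ENSG00000182253, chr15:99098217-99135593, forward strand) had 9.74, 7.57, 8.80 and 8.48 CPM (8.65 ± 0.896 CPM). Windows of 150 bases shared with an antisense annotation made up 23.9% of its transcript.

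NES, the nestin gene of progenitor cells, had 2, 8, 4 and 3 counts, with exact 95% Poisson intervals that reached from 0.242 to 15.8 counts. NES was lower than SYNM in 4 of 4 libraries, with a log2 ratio of CPM of -6.62 ± 0.96 (exact sign-flip p = 0.125) and of -6.13 per kilobase of exon. Of this pair SYNM was the detected one.

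Variation between the replicate libraries was tested for all genes that averaged at least 10 counts, using a chi-square test of homogeneity with 3 degrees of freedom and Benjamini-Hochberg adjustment over 16790 genes. Of the 18 members tested, 12 varied beyond counting noise, against 59.2% of all genes tested. The members' share was thus near the background. Those that also ranged by 1.5-fold or more numbered 1 of 18, against 12% of all genes tested, and that member was KRT86. The ranges of the members tested had a median of 1.29-fold, against 1.22-fold over all genes tested. Small differences pass this test in deeply counted genes, so the range is given beside each call.

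Among the 12, KRT81 ranged 1.36-fold (chi-square statistic 3628), LMNA 1.297-fold (1470.0), VIM 1.13-fold (2131) and LMNB2 1.17-fold (adjusted p = 4.9e-67). KRT8 ranged 1.21-fold (adjusted p = 6.8e-53) and KRT18 1.16-fold (adjusted p = 2.8e-22). The lower members KRT7 (1.43-fold, adjusted p = 1.0e-04), KRT15 (1.45-fold, adjusted p = 8.2e-05) and KRT10 (1.28-fold, adjusted p = 4.5e-04) varied too. SYNM ranged 1.29-fold (adjusted p = 0.018), LMNB1 1.07-fold (adjusted p = 0.0255) and KRT86 1.51-fold (adjusted p = 0.0304). KRT80, NEFL, KRT79, KRT34, KRT3 and GFAP missed the threshold, with adjusted p-values of 0.0883 to 0.487.

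Some of these calls changed when 1 library was left out. LMNB1 was no longer called without replicate 1 (adjusted p = 0.19) or replicate 3 (0.0709), SYNM without replicate 1 (0.186) or replicate 2 (0.148), KRT15 without replicate 2 (0.196), and KRT86 without replicate 3 (0.845) or replicate 4 (0.0507). KRT80 passed without replicate 2 (0.0444) or replicate 3 (0.0286), and NEFL without replicate 1 (0.0476).

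The direction was shared only in part. Replicate 3 was the highest library for LMNA and KRT86, and replicate 1 for LMNB1, KRT10 and SYNM. Replicate 2 was the highest library for 7 of the 12 members that varied, against 35.3% of all 9944 genes that varied and 56.6% of those with a transcript GC content of 60% or more. KRT7, KRT81, LMNA, KRT86 and LMNB2 had a GC content of 61.4% to 62.9%, and VIM of 46.9%. With expectations scaled in each library by genes of like GC content, an alternative chosen after seeing the data, the range fell to 1.25-fold in KRT81, to 1.14-fold in LMNA and to 1.06-fold in LMNB2. VIM ranged 1.14-fold on that scale. The range was wider in LMNB1 (1.12-fold, adjusted p = 1.1e-06), SYNM (1.36-fold) and KRT10 (1.301-fold), whereas it narrowed to 1.24-fold in KRT7, 1.31-fold in KRT15, 1.12-fold in KRT8, 1.05-fold in KRT18 and 1.45-fold in KRT86. KRT86 was then not called (adjusted p = 0.0824), and the other 11 members were. The part of GC content and of the structural RNA share in the variation was not tested further.

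**Figure D5:**
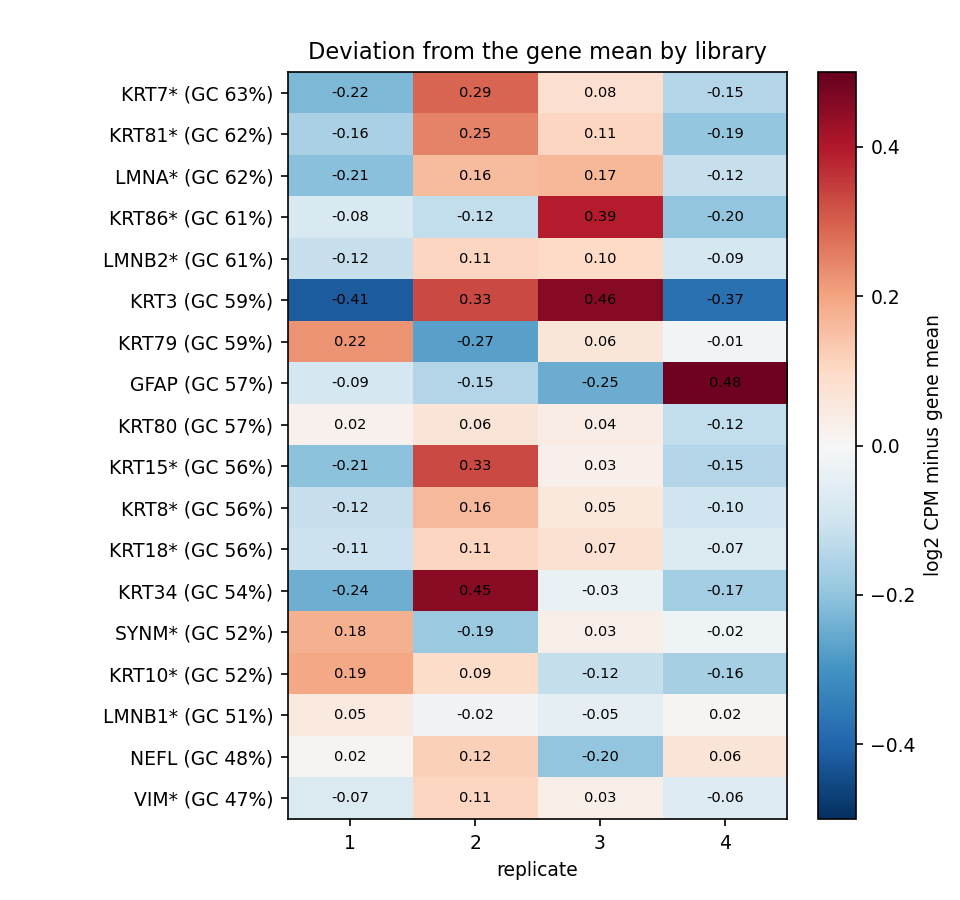
Deviation of each tested member from its own mean, in log2 CPM (with 0.01 CPM added), for replicates 1 to 4. Rows are ordered by the GC content of the longest transcript and an asterisk marks members that varied by the chi-square test. KRT81 runs from -0.19 in replicate 4 to 0.25 in replicate 2, and LMNB1 stays within 0.05 of its mean.

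Genes that work with these filaments were followed in 13 lists, and their counts of detected genes stand beside the 58.8% of protein-coding rows. Cytolinkers, which tie filaments to junctions and other cytoskeletal systems, had 3 of 6 detected. They were PLEC, the plectin gene (1504 ± 134 CPM), DST (619.7 ± 65.4 CPM) and MACF1 (594 ± 55.4 CPM). The 6 hemidesmosome genes, which anchor keratin filaments to the matrix, were all detected, including ITGA6 at 723 ± 22.2 CPM and COL17A1 at 11.1 ± 1.87 CPM. ITGB4 was the lowest of them, at 2.29 ± 0.286 CPM, and PLEC and DST belong to both lists.

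Of 14 desmosome genes 7 were detected, led by PERP (150.03 ± 5.82 CPM), the cadherin DSG2 (116 ± 7.49 CPM) and PKP4 (64.05 ± 1.31 CPM). DSP, the desmoplakin gene that ties keratins to desmosomes, had 22.8, 19.8, 24.1 and 20.1 CPM (21.7 ± 2.09 CPM). JUP, the plakoglobin gene, averaged 0.417 ± 0.0595 CPM. DSC2, at 1.98 ± 0.464 CPM, ranged 1.60-fold between libraries (adjusted p = 0.0069).

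The nuclear partners of the lamins were mostly detected. In the linker complex that joins lamins to the cytoskeleton these were 7 of 8, with SUN1 at 116 ± 7.04, SUN2 at 107 ± 6.48, SYNE1 at 91.9 ± 2.75 and SYNE2 at 32.1 ± 5.44 CPM. Of 10 lamina-binding genes 9 were detected, with TMPO at 207 ± 8.78, NUP153 at 161 ± 8.92 and BANF1 at 136 ± 20.4 CPM. All 5 genes of lamin processing were, with ICMT at 126 ± 1.22, the prelamin A protease gene ZMPSTE24 at 65.8 ± 3.57 and FNTA at 56.4 ± 2.96 CPM. The 8 kinases that phosphorylate filaments were detected too, with PAK2 at 236 ± 14.97, PLK1 at 139.7 ± 7.91, ROCK1 at 112 ± 4.39 and AURKB at 46.7 ± 4.38 CPM.

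The cell type lists were checked because keratins are used as epithelial markers. Of 12 epithelial genes outside the filament family 1 was detected: CLDN4, at 2.49 ± 0.438 CPM. MUC1 averaged 1.25 ± 0.285 and SPINT2 0.570 ± 0.209 CPM, and EPCAM and CDH1, the defining adhesion genes of epithelia, had 0 counts in all 4 libraries. The summed level of the list was 4.04 to 5.27 CPM per library. Of 10 mesenchymal genes 8 were detected, with COL6A3 at 3624 ± 248, CD44 at 1560.1 ± 85.8 and FN1 at 633 ± 118 CPM. S100A4 (0.449 ± 0.143 CPM) and THY1 (0.178 ± 0.119 CPM), named after their values were seen, were not detected. Of 12 neural, muscle and glial genes 4 were detected, namely TUBB3 (127 ± 15.7 CPM), TTN (26.7 ± 6.73 CPM), SLC1A3 (10.8 ± 1.89 CPM) and MAP2, named after its value was seen. Per kilobase of annotated exon they had 28.6, 0.224, 1.72 and 0.242 CPM, in that order, so TTN was the lowest of them on that scale. STMN2, MYOD1, MYOG, S100B and AQP4 had 0 counts in all libraries. In bulk RNA fewer cells that express a gene and less RNA per cell cannot be told apart, so a level such as that of KRT15 or NEFL may come from few or many cells.

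Of 14 transcription and splicing factors linked to keratin expression 7 were detected. The repressors of epithelial genes ZEB1 (88.9 ± 3.53 CPM), ZEB2 (65.3 ± 2.66 CPM) and SNAI2 (49.8 ± 4.34 CPM) were the highest in CPM. The others detected were KLF5 (10.4 ± 0.634 CPM), TWIST1 (9.72 ± 0.809 CPM), KLF4 (3.84 ± 0.205 CPM) and SNAI1 (3.19 ± 0.142 CPM). Per kilobase of annotated exon SNAI2 had 14.7, ZEB1 10.3, TWIST1 4.78, KLF5 2.68 and ZEB2 2.61 CPM. TP63, the master regulator of stratified epithelium, and OVOL1 had 0 counts in all libraries. Of 12 cornification genes 2 were detected, FLG (36.0 ± 5.14 CPM) and IVL (5.26 ± 0.966 CPM), and TGM5 averaged 0.566 ± 0.110 CPM. Of 7 further filament-like genes 3 were detected, IFFO2 (50.9 ± 1.82 CPM), IFFO1 (12.5 ± 1.27 CPM) and SYNC (4.33 ± 0.955 CPM).

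Variation of the list genes between libraries stands beside the 59.2% of all genes that the chi-square test called. Among those tested it called 3 of 4 cytolinkers, 5 of 9 desmosome, 5 of 6 hemidesmosome, 6 of 7 linker complex and 8 of 9 lamina-binding genes. It called 2 of 5 lamin processing genes, 7 of 8 kinases, 3 of 8 keratin regulators, 2 of 5 cornification genes and 2 of 4 further filament-like genes. In the cell type lists it called 2 of 3 epithelial, 8 of 9 mesenchymal and 3 of 4 neural, muscle and glial genes. Of all genes tested 12% were called and ranged by 1.5-fold or more. In the lists these were 2 desmosome, 2 epithelial and 2 neural, muscle and glial genes. A further 1 mesenchymal and 1 filament-like gene did so, and 0 in every other list. FN1 (1.60-fold, replicate 2 lowest) and TTN (1.66-fold, replicate 4 highest) ranged more than any detected filament member, and neither followed the order of libraries seen in KRT81.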

How the data were processed

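RNA of 4 libraries of KDAC8 knockout HT1080 cells was sequenced. The authors deposited expected counts per gene for each library, not scaled between libraries, as read from the values, which are whole or fractional and sum to different totals. Build GRCh38, DESeq2 1.46.0, RSEM 1.3.3, Trimmomatic 0.39 and Bowtie2 2.5.4 are named, per the submitters' processing notes. What each did, the gene annotation and whether strand was used are not given in these sources. An expected count can share a read between similar genes. Unused per-sample columns numbered 0.

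Counts were rounded for tests. Library sizes came from edgeR 4.0.16 (TMM) in R 4.3.3, and DESeq2 1.42.0 size factors served as an alternative. Other steps used Python 3.11.15 with scipy 1.17.1. Positions, exonic and coding lengths, GC content and sequences came from GENCODE release 29, which held all 68 members and 94.03% of rows; the authors may have used another release. A pseudocount of 0.01 CPM was used for logs of single genes and none for ratios. The chi-square test was tested on simulated data with known changes and counting noise only, which does not cover the wider spread of the real libraries. Common dispersion with an intercept-only design gave a biological coefficient of variation of 0.0923.

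Members at a mean of 0.2 CPM or more were named, and in each list the 3 highest genes, the most variable called gene, DSP, JUP, EPCAM and CDH1; lower members named beyond this were chosen after their values were seen. The members and lists were chosen with earlier results of these data known. All 122 list genes were matched.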

Additional observations from a re-analysis of the deposited data

How the results depend on the processing

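No paired analysis was possible because the labels give 1 group. The number of members that varied was 12 of 18, against 59.2% of all genes tested. It was 12 of 18 with DESeq2 size factors (59.4% of all), with total counts (60.2%) and with TMM sizes made without structural and mitochondrial RNA (59.2%). It was 14 of 41 with no filter on low counts (34.8%), 12 of 14 with a minimum mean of 50 counts (68.5%) and 11 of 18 with expectations scaled by GC content (50.9%). Without each replicate it was 11 of 18 or 19, against 46.8% to 55.9% of all genes. Requiring a range of 1.5-fold or more left 1. The number detected was 11 to 15 under the other thresholds and scalings and 14 to 15 without each replicate. KRT8 against KRT18 reversed per kilobase of exon (-0.57 log2 units), which follows from the annotated lengths, and was 0.51 to 0.53 without each replicate; the other 6 within-library comparisons kept their direction under every alternative run. TMM sizes without structural and mitochondrial RNA moved the level of 9 of 19 named members by more than 1 SD, since the totals are then smaller; VIM stood at 5310 CPM, against 4701 CPM. DESeq2 size factors and total counts moved none of the 19. Depth limits the members under 0.2 CPM, for which 0 to 8 counts per library fix no order. Shared sequence limits KRT86, and other detected members shared a like part of their windows of 50 bases with another gene. That part was 40.5% in KRT86, 47.6% in KRT18, 44.6% in KRT81, 41.3% in KRT8 and 38.2% in VIM.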

Other observations

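Keratin-associated proteins, the matrix proteins in which hair keratin filaments are embedded, were almost silent beside KRT81. Of 110 KRTAP rows 98 had 0 counts in all 4 libraries and 1 was detected. KRTAP2-3 (chr17:41059240-41060114, reverse strand), chosen after its values were seen, had 172, 233, 249 and 191 counts in replicates 1 to 4, or 4.95 ± 0.661 CPM (SD, n = 4). It varied between libraries (chi-square test, adjusted p = 0.021). KRTAP4-11 was the next, at 0.606 ± 0.125 CPM.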
